A study of Drosophila melanogaster with 9 samples.

Results

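Of the 9 skeletal muscle arrays of this study, 5 carried a high signal for Mst84Da, a gene of the sperm tail, and 4 carried a lower one. The division was made on the Mst84Da probe set itself. Arrays at 9.2 or above on the log2 scale were called rich and those under 9.2 were called poor. The rich class held control 1, Foxo 1, Foxo 2, Foxo 3 and Mnt 3, and the poor class held control 2, control 3, Mnt 1 and Mnt 2. Because the classes were chosen from these values, every difference between them is given here as a description, with no test.

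RNA came from the skeletal muscle of male Drosophila melanogaster, and each array of the Affymetrix Drosophila Genome 2.0 type measured 1 sample. The 3 groups of 3 biological replicates were control flies, flies with a UAS-Foxo transgene and flies with a UAS-Mnt transgene. Foxo is a transcription factor restrained by insulin signalling, and Mnt is a repressor that opposes Myc. All flies were taken within 24 h of eclosion and kept at 25 C with 20 flies per vial, and at least 15 males went into a group. The sources used here do not give the driver of the transgenes, the full genotype of the controls or the age at dissection.

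In the fly testis, stem cells at the hub give rise to spermatogonia enclosed by somatic cyst cells, which become spermatocytes, pass meiosis and elongate as spermatids. Most transcription for later stages takes place in spermatocytes, under a set of regulators known as the meiotic arrest genes, and many of these messages are stored until the spermatid needs them. The spermatid then builds a long flagellum, fuses its mitochondria into derivatives that run along the tail, and replaces histones with protamines. Muscle is not known as a site of these events.

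Signals are values made by RMA, a method that removes background, gives the probe values of all arrays the same distribution and turns the probes of each set into 1 value. A difference of 1 on its log2 scale is a 2-fold difference. Each gene was read from 1 probe set, which gave 11982 genes. The median over all probe sets lay at 5.83 to 5.95 in the rich arrays and at 5.70 to 5.78 in the poor arrays, so this property also separated the classes. Muscle identity was present in all arrays, with the mean of 25 sarcomere genes between 12.28 and 12.69. The foxo probe set lay at 9.42, 9.50 and 9.05 in the controls and at 11.95, 9.52 and 10.22 in the Foxo arrays. The array labelled Foxo 2 thus sat close to the controls for foxo, and arrays are named by their labels throughout. The Mnt probe set lay between 8.41 and 8.57 in the 6 other arrays and at 9.85, 11.69 and 11.71 in the Mnt arrays.

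Mst84Da was read by 1 probe set. In this and later sentences, 3 values of a group stand in the order of replicates 1, 2 and 3. Mst84Da lay at 9.54, 8.55 and 5.58 in the controls, at 9.31, 10.66 and 10.15 in the Foxo arrays and at 8.92, 5.88 and 9.91 in the Mnt arrays. Foxo 2 was the highest and control 3 the lowest, 33.9-fold apart. The array just inside the threshold was Foxo 1 at 9.31 and the one just outside it was Mnt 1 at 8.92, a gap of 0.39. The widest gap among the 9 values, 2.67, lay elsewhere, between Mnt 2 and control 2. The poor class therefore joined 2 arrays of very low signal with 2 of middle signal. A bulk sample cannot tell fewer cells of a type from less RNA per cell, and the origin of these transcripts was not tested.

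The rule used the values of Mst84Da but not the group labels, and its levels in the labelled groups overlapped. Control arrays had a mean of 7.89 ± 2.06 (SD, n = 3), Foxo arrays one of 10.04 ± 0.68 (SD, n = 3) and Mnt arrays one of 8.24 ± 2.10 (SD, n = 3). An exact permutation test of the 3 groups over all 1680 groupings gave p = 0.314. With 3 arrays per group and this spread, neither this test nor the fit below can show that the groups were alike. In limma's fit across all genes, Foxo arrays differed from controls by 2.15 on the log2 scale with an SE of 1.22 (adjusted p = 0.355), and Mnt arrays by 0.35 with the same SE (adjusted p = 0.999). The 3 Foxo arrays were all rich, so the class and the Foxo group cannot be told apart from these 3 arrays. The controls and the Mnt arrays each held 1 rich and 2 poor arrays.

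Mst84Da is 1 of 7 measured members of the Mst(3)CGP family, proteins of Cys-Gly-Pro repeats in the outer part of the sperm tail. Its neighbour Mst84Db lay at 9.83, 8.93 and 5.98 in the controls, at 9.77, 11.23 and 10.62 in the Foxo arrays and at 9.39, 6.03 and 10.42 in the Mnt arrays. Mst84Db thus ordered the 9 arrays exactly as Mst84Da did. Mst87F, whose message is stored in spermatocytes before it is translated, lay at 9.06, 8.10 and 5.72, at 8.89, 10.56 and 9.77, and at 8.64, 5.64 and 9.56. Mst98Cb, a longer member of the family, lay at 8.51, 6.43 and 4.78, at 8.50, 9.96 and 9.15, and at 7.82, 5.63 and 8.99. Its difference between classes was the largest of the family, at 2.86, or 7.24-fold. The smallest was that of Mst98Ca, at 2.20, where control 3 and Mnt 2 still read 7.09 and 7.31. In the other 6 genes of the family, as in Mst84Da by the rule itself, every rich array lay above every poor array.

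**Figure D1:**
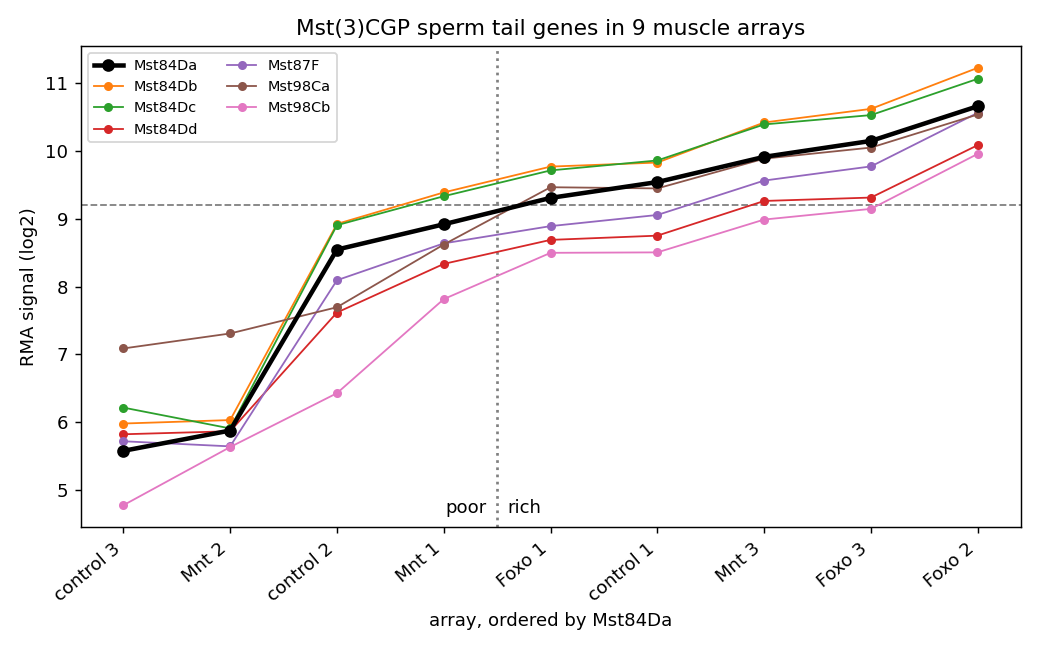
Log2 RMA signal of the 7 Mst(3)CGP genes (vertical axis) in each array (horizontal axis), ordered by Mst84Da; the dashed line is the threshold of 9.2 and the dotted line divides poor from rich arrays. Control 3 and Mnt 2 are the lowest pair in every gene, with a narrow gap to control 2 in Mst98Ca, and control 2 and Mnt 1 lie between them and the rich arrays; heights of different genes are not comparable as amounts.

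Counted as higher was any gene whose 5 rich arrays all lay above its 4 poor arrays with a mean difference of at least 1. This held for 544 of 11982 genes, or 4.54%, while 0 genes were lower by the mirrored rule, or 0%. Asking only for no overlap, 929 genes (7.75%) lay above and 760 genes (6.34%) lay below. The genes below had a median difference of -0.23 and the most negative stood at -0.90, whereas those above had a median of 1.17. The median over all genes was -0.07. Nothing is read from these shares, since the classes were chosen from the same arrays.

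Among the 544 genes the median difference was 1.60, with quartiles of 1.29 and 2.12 and a maximum of 4.66. The difference reached 2 in 160 genes and 3 in 35. Foxo 2 was the highest array for 495 of the 544, and control 3 and Mnt 2 were the lowest pair for 419. Measured from control 3, the median of the 544 lay at 0.01 in Mnt 2, 0.43 in control 2, 0.92 in Mnt 1, 1.39 in Foxo 1, 1.41 in control 1, 2.13 in Mnt 3, 2.17 in Foxo 3 and 2.71 in Foxo 2. The 9 arrays therefore formed a series of steps rather than a pair of levels. In control 3 and in Mnt 2, 466 of the genes lay under the median of the array in both, and 48 lay above it in all 9 arrays.

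The 8 lists called here spermatid and sperm lists held 116 measured genes. Of these 55 (47.4%) were higher, against 4.54% of all genes, and 0 were lower, with a median difference of 0.96. They include the testis variants of mitochondrial, proteasome and translation genes, and some members, such as alphaTub84D, serve many tissues. Mst84Da, higher by the rule itself, is among the 55. The 4 lists of earlier or somatic testis genes held 47 measured genes, of which 0 were higher and 0 lower, with a median of -0.02. The 9 lists of muscle and other tissues held 119, of which 3 (2.52%) were higher. Set against the other lists, the rich arrays carried more signal for many genes of these 8 lists. The counts of the earlier and of the other lists lie near the 4.54% of all genes, and nothing particular to those lists is read from them. The map of list means by array shows each list.

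**Figure D2:**
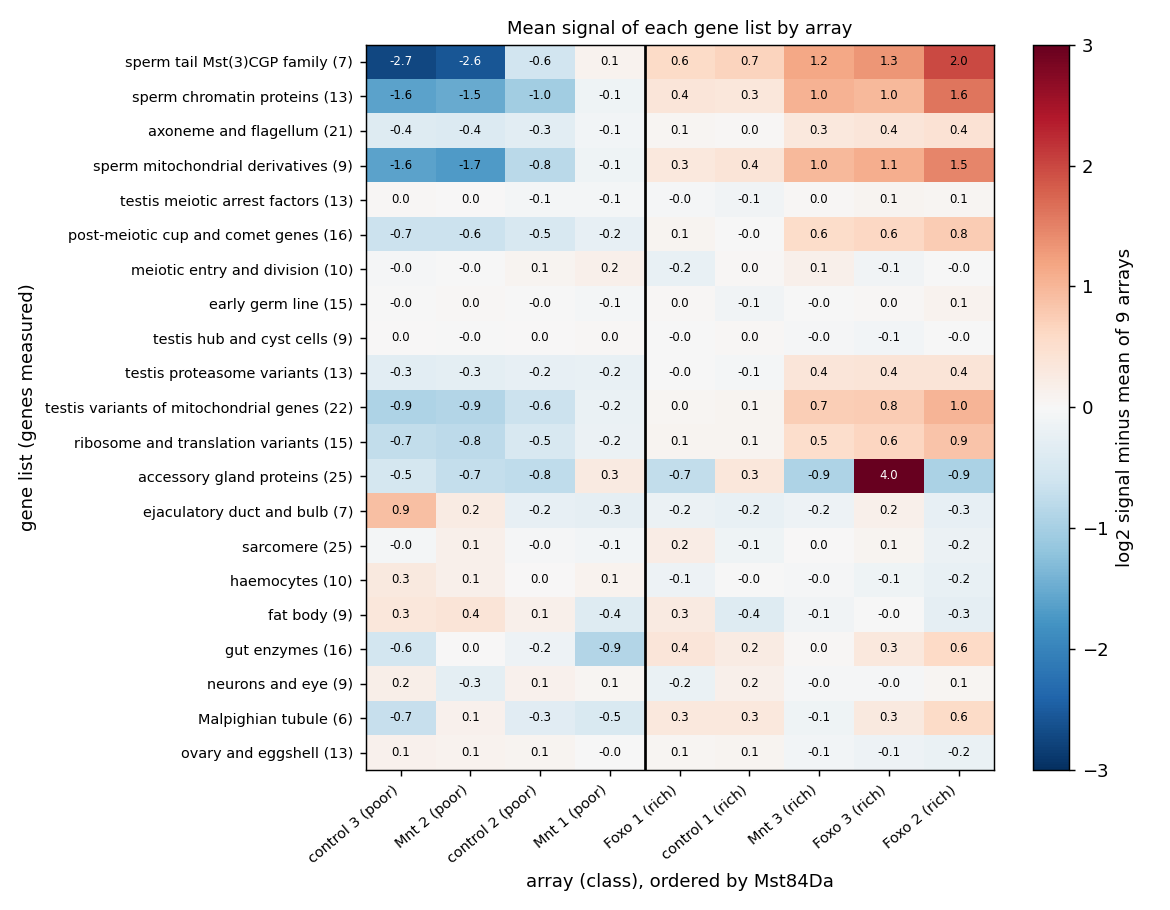
Mean log2 signal of each gene list (vertical axis, genes measured in brackets) in each array (horizontal axis, ordered by Mst84Da) after subtraction of the mean of the list over the 9 arrays; the colour scale ends at 3 and the line divides poor from rich arrays. Lists of sperm tail, chromatin and mitochondrial derivative genes deepen from blue to red across the arrays, lists of early testis cells stay near 0, and the accessory gland list stands at 4.0 in Foxo 3.

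Of the 13 proteins of sperm chromatin, 12 were higher and the median difference was 2.01. ProtA, a protamine that packs DNA in the sperm head, lay at 7.17, 4.77 and 3.76 in the controls, at 7.20, 8.64 and 7.52 in the Foxo arrays and at 6.36, 3.43 and 7.69 in the Mnt arrays. This is 8.36-fold between the class means of 7.64 ± 0.60 (SD, n = 5) and 4.58 ± 1.32 (SD, n = 4). Mst77F, a linker-histone-like protein of condensing spermatid nuclei, differed by 2.86, and ProtB, the other protamine, by 2.74. The HMG-box protein tHMG1, present in spermatids during the exchange of histones, differed by 2.71 and reached 8.67, 8.64 and 8.54 in Foxo 2, Foxo 3 and Mnt 3. Prtl99C, a further protamine-like protein, and CG30356 stood at the lower end of those counted, at 1.27 and 1.09. The exception, ddbt, which protects telomeres in sperm, differed by 0.46 without overlap.

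The axoneme list split. Of its 21 measured genes 4 were higher and the median was 0.26. The beta-tubulin betaTub85D, the testis form from which the sperm axoneme is built, lay at 8.37, 6.32 and 5.07, at 8.21, 9.77 and 9.52, and at 7.61, 4.86 and 9.49. Its difference of 3.11 was the largest on the list. Tektin-A, a filament protein of flagella, differed by 2.10, the dynein light intermediate chain Dnali1 by 1.05 and the dynein assembly protein wam by 1.02. The axonemal dynein heavy chains gave another picture: kl-2, kl-3, kl-5, Dhc16F, Dhc62B, Dhc93AB and Dhc98D differed by -0.11 to 0.13. The genes kl-2, kl-3 and kl-5, on the Y chromosome, had signals of 2.99 to 3.74 in all 9 arrays, below the lower quartile of 4.18 to 4.31 of the arrays. The most negative members were Dnai2, a dynein intermediate chain, at -0.23 and alphaTub84D, an alpha-tubulin of many tissues, at -0.14.

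Genes of the mitochondrial derivatives were strongly divided between the classes, with 6 of 9 higher and a median of 2.31. The sperm leucyl aminopeptidases, which fill the derivatives with crystalline material, held the 3 largest differences. S-Lap2 lay at 7.76, 5.48 and 3.85 in the controls, at 7.62, 9.11 and 8.57 in the Foxo arrays and at 7.06, 3.78 and 8.60 in the Mnt arrays. Its class difference of 3.29 was followed by 3.27 for S-Lap7 and 2.94 for S-Lap8, while S-Lap5 differed by 0.95. The sperm tail protein dj and its relative djl differed by 1.10 and 2.40. Lowest on the list were knon, a derivative protein related to an ATP synthase subunit, at 0.71, and fzo, the mitofusin that fuses spermatid mitochondria just after meiosis, at 0.25 with overlap.

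Testis forms of general cellular machinery were mixed. Of 22 testis variants of mitochondrial proteins, 12 were higher, with a median of 1.03. The import channel protein Tim17b2 lay at 6.90, 5.18 and 3.90, at 6.70, 8.28 and 7.71, and at 6.32, 4.02 and 7.72, a difference of 2.61. The cytochrome c oxidase variants COX4L and COX7AL differed by 2.32 and 2.25, and tomboy20, a variant of an outer membrane import receptor, by 2.17. At the other end, ATPsynbetaL and Tim17a2 differed by 0.03 and -0.18.

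Of 15 ribosome and translation variants, 6 were higher and the median was 0.35. The higher genes were fest, which acts on translation in spermatocytes, at 3.33, the cap-binding variants eIF4E5, eIF4E3, eIF4E4 and eIF4E7 at 2.74, 1.96, 1.59 and 1.30, and the ribosomal protein variant RpL10Aa at 1.69. fest lay at 7.41, 5.63 and 3.71, at 7.49, 9.40 and 8.82, and at 6.81, 3.79 and 8.47. The other ribosomal protein variants reached at most 0.64 (RpS19b), and RpS28a and RpL7-like stood at 0.01. Of the 13 testis proteasome variants 1 was higher, the catalytic variant Prosbeta5R1 at 1.10. A further 6 proteasome variants lay above without reaching 1, among them Prosalpha6T at 0.98 and Rpn12R at 0.83, and Prosbeta4R2 stood at -0.10.

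The cup and comet genes, which unlike most are transcribed after meiosis and whose messages gather at the tips of elongating spermatids, gave 7 higher of 16 with a median of 1.01. The comet gene sowi lay at 6.26, 4.39 and 3.68, at 6.14, 7.78 and 7.06, and at 5.55, 3.61 and 7.17, a difference of 2.57. The others ranged from 1.47 for t-cup to 1.15 for boly. Among them was soti, which restrains a ubiquitin ligase during sperm individualisation, at 1.22. The list member scpr-C differed by 1.58, but Foxo 3 at 7.71 lay under Mnt 1 at 7.78, so its classes overlapped. The lowest were f-cup at 0.00 and s-cup at -0.15.

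**Figure D3:**
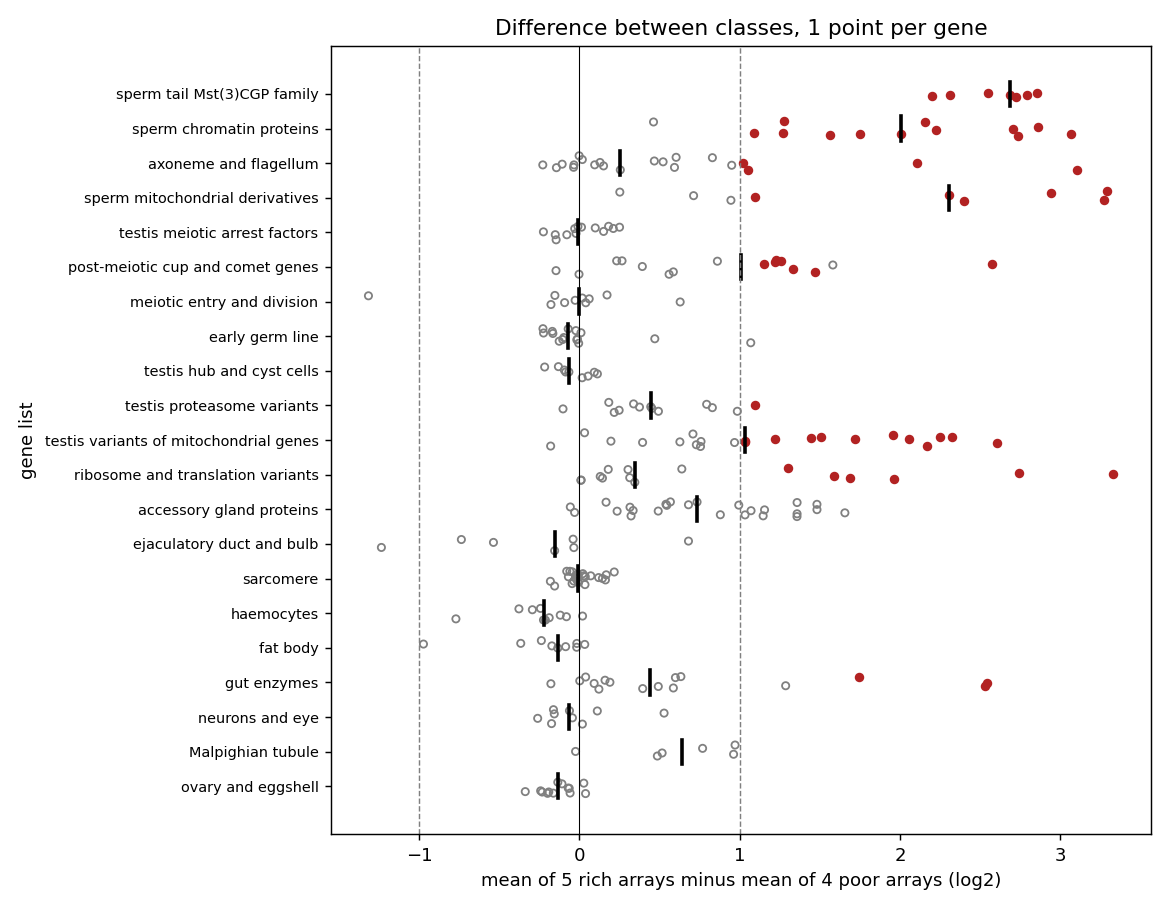
Mean of the 5 rich arrays minus mean of the 4 poor arrays (horizontal axis, log2) for each measured gene of each list (vertical axis); filled points are genes counted as higher, bars are list medians and dashed lines mark -1 and 1. All 7 sperm tail genes are filled, while the meiotic arrest, meiotic entry, early germ line and hub and cyst lists hold 0 filled points.

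The 4 earlier testis lists held 0 higher genes, near the share over all genes. The 13 meiotic arrest genes, which switch on spermatid genes in spermatocytes, had a median difference of -0.01 and a range of -0.22 to 0.25. The meiotic arrest regulator aly differed by -0.02, and can and sa, testis variants of general transcription factor subunits, by 0.15 and 0.25. The mean of that list was 4.38 to 4.57 in the rich arrays and 4.43 to 4.52 in the poor arrays, well under the array medians. Whether these signals lie above background cannot be read from the deposited values. Early germ line genes had a median of -0.07 over 15 genes and a range of -0.23 to 1.07. The highest were squ, described below, and bgcn at 0.47 with overlap. The germ cell helicase vas stood at -0.02, the spermatogonial differentiation factor bam at -0.17 and piwi at -0.23. The hub and cyst list had a median of -0.07 over 9 genes, from the hub signal upd1 at -0.22 to esg, a transcription factor of stem cells, at 0.11. Signals of vas, bam, piwi and upd1 lay under the lower quartile in every array, so the same limit on background holds for them.

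On the meiotic entry list, with a median of 0.00 over 10 genes, mei-S332, which guards centromere cohesion in meiosis, stood highest at 0.63 and CycB lowest at -1.32. CycB, a cyclin of division, lay at 7.90, 7.81 and 7.91 in the controls, at 5.28, 6.04 and 5.77 in the Foxo arrays and at 8.22, 7.82 and 8.12 in the Mnt arrays. It was low in the 3 Foxo arrays, of which all are rich, and within the controls and the Mnt arrays its rich array differed from the poor ones by 0.04 and 0.10. On the early germ line list squ, a gene of the piRNA pathway, differed by 1.07 and was likewise a matter of the Foxo arrays, at 6.28, 6.48 and 6.19 against 4.56 to 5.03 in the other 6.

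Most of the 544 genes stood outside all lists, 486 of them, and 389 of the 544 (71.5%) bear only a computed gene number as their name, against 5219 of all 11982 genes (43.6%). The largest differences outside the lists were those of CG7953 and CG8997, at 4.66 and 4.54. CG7953 lay at 11.10, 9.37 and 5.06, at 10.25, 11.42 and 11.48, and at 5.32, 5.62 and 10.74. In contrast to the sperm genes, CG7953 was low in Mnt 1 and high in control 2, and CG8997 did the same with 5.83 in Mnt 1 and 10.03 in control 2. Across the 544 genes Mnt 1 lay above control 2 in 500.

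The next 10 genes by size followed the sperm pattern. They were lncRNA:CR32690 at 3.44, CG30039 at 3.38, ocn at 3.34, CG31988 at 3.33, CG17377 at 3.29, CG17376 at 3.28, exu at 3.23, CG12699 at 3.23, CG31468 at 3.21 and lncRNA:CR9284 at 3.20. ocn, a testis gene of the janus family, lay at 9.76, 8.54 and 5.51, at 9.60, 11.25 and 10.64, and at 9.03, 4.94 and 10.46. exu, known for the placing of bicoid RNA in the egg and also used in spermatogenesis, lay at 7.65, 5.81 and 4.41, at 7.73, 9.42 and 9.01, and at 7.03, 3.88 and 8.75. In all 10 genes control 3 and Mnt 2 were the lowest pair.

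The genes nearest to Mst84Da were found from the root mean square difference of log2 values, each gene centred on its own mean over the 9 arrays. They were CR17567 at 0.11, Mst84Db at 0.12, Mst84Dc at 0.15, CG10252 at 0.16, CG31740 at 0.17 and CG5089 at 0.18. CR17567 lay at 9.56, 8.71 and 5.92, at 9.44, 10.96 and 10.27, and at 9.08, 5.85 and 10.02. All 6 were among the 544, and all had control 3 and Mnt 2 far below the other arrays.

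By the Release 6 plus ISO1 MT annotation, which matched 542 of the 544 genes, higher genes were spread over the large chromosome arms. The X held 51 of them, or 9.41%, against 15.7% of all matched genes. Arm 2L held 24.7% against 18.5%, 2R 19.6% against 20.4%, 3L 18.5% against 19.7% and 3R 27.9% against 25.0%, while chromosomes 4 and Y held 0 of their 65 and 4 measured genes. Of the 542, 120 (22.1%) had a higher gene as a measured neighbour, against 898 of 11351 other genes (7.91%). Runs of at least 3 neighbouring higher genes numbered 13 and took in 44 genes. The longest was CG17944, Mst84Dd, Mst84Dc, Mst84Db and Mst84Da on 3R, with differences of 1.31 to 2.79, and another on 3R held CG1979, dj, djl and Mst84B, at 1.10 to 2.40. Closely related neighbours may share probe sequences, which was not tested.

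The controls and the Mnt arrays each held both classes, which allowed the division to be seen inside a labelled group with no array in common. Control 1 lay above both other controls, with a mean difference of at least 1, in 470 genes (3.92%), and Mnt 3 above both other Mnt arrays in 694 genes (5.79%). The overlap was 368 genes, which is 78.3% of the control set and 53.0% of the Mnt set. Of the 544 genes, 342 passed within the controls and 522 within the Mnt arrays. Their definition already puts the rich array above the poor ones in both groups, so only the size of the difference could vary. Across all 11982 genes the 2 within-group differences had a Pearson correlation of 0.702, given as a description because genes are not independent and all 6 arrays helped to set the classes. For betaTub85D the difference was 2.67 within the controls and 3.25 within the Mnt arrays, and for ProtA 2.90 and 2.80.

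**Figure D4:**
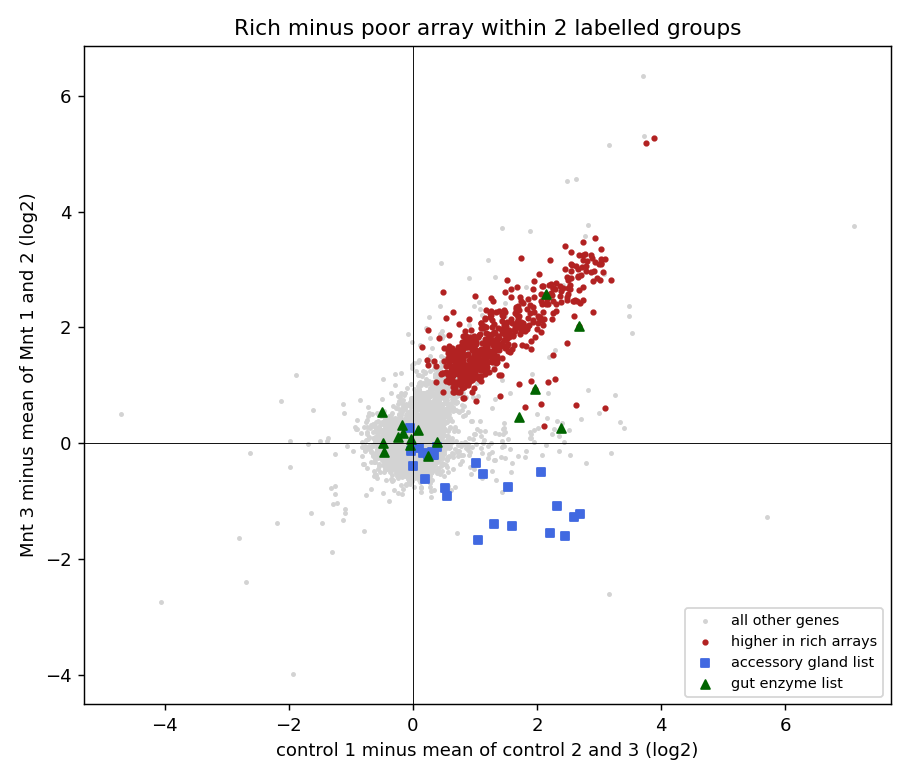
Each point is 1 gene; the horizontal axis is control 1 minus the mean of controls 2 and 3 and the vertical axis is Mnt 3 minus the mean of Mnt 1 and 2, both in log2. The 544 higher genes lie along a diagonal in the upper right, where their definition places them. Accessory gland genes extend to the lower right.

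Inside the groups the poor arrays were themselves unequal. Control 2 lay above control 3 by a median of 2.38 over the sperm tail family and 0.50 over the chromatin list, and Mnt 1 above Mnt 2 by 2.99 and 1.49. For the cup and comet genes the same steps were 0.12 and 0.20, and for the translation variants 0.01 and 0.15. For the mitochondrial derivatives they were 1.04 and 2.20. The step was thus wider between the Mnt arrays than between the controls in these 5 lists. The same held for the axoneme list, at -0.01 and 0.15, and the testis variants of mitochondrial proteins, at 0.24 and 0.56. It did not hold for the testis proteasome variants, at 0.08 and 0.05.

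Genes lower in rich arrays differed little in size. Outside the lists, the most negative among genes without overlap was CG33109 at -0.90, which lay at 10.66, 11.13 and 11.35, at 10.29, 10.52 and 9.29, and at 11.16, 10.93 and 10.44. Next came CG9395 at -0.83, CG13794 at -0.76, the pheromone-sensing channel gene ppk25 at -0.75, witty at -0.58, CG12912 at -0.52, CG30380 at -0.50, CG43244 at -0.49, CG18367 and Frmd5 at -0.47, and the receptor kinase gene Ror and CG8248 at -0.46. CG13794 lay at 9.50, 9.50 and 9.83 in the controls and 8.28 to 8.59 in the Foxo arrays, so that its difference lay mainly between labelled groups.

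A mean difference of -1 or less with overlapping classes was seen in 8 genes, named after their values were seen. They were CG18404, CG5767, fit, CycB, Ebp, Noc2, CG8661 and Peritrophin-15a. CG18404, the largest at -1.62, lay at 5.61, 8.78 and 10.56, at 8.95, 10.12 and 9.17, and at 9.66, 10.35 and 7.26. It was low in control 1 and Mnt 3, the rich arrays of those groups, but high in all Foxo arrays. Peritrophin-15a, which binds chitin in the lining of the gut, lay at 6.70, 8.76 and 10.24, at 8.79, 10.09 and 8.29, and at 8.33, 10.11 and 7.58. It was likewise lowest in control 1 and Mnt 3, but its signal in Foxo 3 lay under every poor array. By contrast Noc2, a nucleolar protein of ribosome assembly, was low at 6.88 and 6.87 in Foxo 1 and Foxo 2 alone.

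When the difference was averaged within the controls and within the Mnt arrays, 14 genes were lower by at least 1 with no overlap in either group. Beside CG18404, CG5767 and Peritrophin-15a these were Peritrophin-15b, the metallothionein gene MtnB, the trypsin gene thetaTry, the proton pump subunit gene Vha100-4, the tetraspanin gene Tsp42Ec, lectin-24A, CG15423, CG17109, CG17930, CG31446 and CG9682. MtnB, whose product binds metals, lay at 5.46, 6.57 and 8.75, at 7.89, 9.03 and 6.77, and at 7.18, 8.54 and 6.47. Foxo 2, the array of highest Mst84Da, had the highest MtnB signal, so these genes did not follow Mst84Da over all 9 arrays.

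Genes of other male organs had patterns of their own. Accessory gland proteins are made for seminal fluid and reach the female at mating, and 0 of 25 measured were higher despite a median difference of 0.73. The list mean was 9.07 in Foxo 3, 5.42 in control 1, 5.33 in Mnt 1 and 4.13 to 4.54 in the other 6 arrays. Sex peptide, SP, which alters female behaviour after mating, lay at 5.97, 4.07 and 4.70, at 4.26, 3.84 and 11.23, and at 6.28, 4.06 and 3.74. The rich mean of 5.81 ± 3.16 (SD, n = 5), against 4.78 ± 1.04 (SD, n = 4) in the poor arrays, thus rested on 1 array. The seminal protein Acp36DE, needed for sperm storage, lay at 10.94 in Foxo 3 and at 5.57 in control 1, and between 3.27 and 3.96 elsewhere. Acp95EF was lowest on the list at -0.06.

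Proteins of the ejaculatory duct and bulb marked other arrays again, with 0 of 7 higher. Ebp, a protein of the mating plug, lay at 6.24 in control 3 and 6.48 in Mnt 2 and at 3.51 to 3.87 elsewhere. These were the 2 arrays of lowest Mst84Da. EbpII and the duct peptide Dup99B stood higher in control 3, at 6.30 and 6.07, than in any other array, where they reached at most 3.26 and 4.72. The bulb protein EbpIII lay between 14.08 and 14.26 in all arrays.

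**Figure D5:**
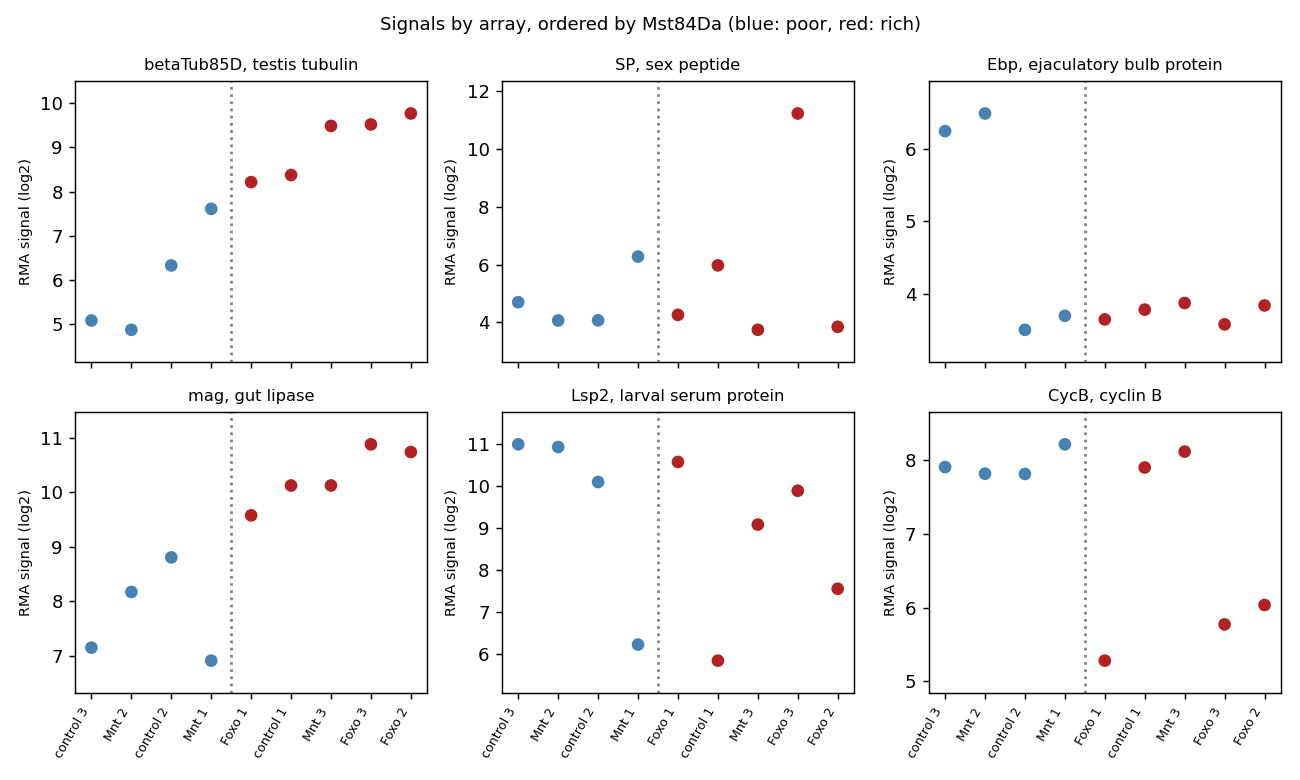
Log2 RMA signal (vertical axes, differing in range) of 6 genes in each array (horizontal axis, ordered by Mst84Da; blue for poor, red for rich). betaTub85D climbs across the series, SP peaks in Foxo 3 at 11.23, Ebp in Mnt 2 and control 3, and CycB is low in the 3 Foxo arrays.

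Among the 9 lists outside the testis, the gut list held all 3 higher genes, of 16 measured, and its median was 0.44. Jon25Biii, a serine protease of the midgut, lay at 11.34, 9.09 and 8.22, at 11.59, 11.38 and 11.72, and at 7.97, 10.29 and 11.15, a difference of 2.54. The gut lipase mag differed by 2.53 and the protease Jon44E by 1.74. In these genes Mnt 1 was low and Mnt 2 higher, the reverse of the sperm genes: mag stood at 6.91 in Mnt 1 and 8.17 in Mnt 2. The list as a whole stepped down by a median of 0.93 from Mnt 2 to Mnt 1. The protease Jon65Aiii, at 0.00, and the maltase Mal-A5, at -0.18, stood lowest.

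Malpighian tubule genes had 0 of 6 higher and a median of 0.64, with the potassium channel Irk3 at 0.97 and the phosphate transporter NaPi-T at 0.96. Their mean was 7.22 to 7.91 in the rich arrays and 6.65 to 7.46 in the poor arrays. The part of these tissues in the class differences was not tested.

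Of the 25 sarcomere genes 0 were higher or lower, near the 4.54% and 0% of all genes. The median was -0.01, and members ranged from sls, the elastic titin-like protein, at -0.18 to the troponin C gene TpnC73F at 0.22. Haemocyte genes had a median of -0.22 over 10 genes, with the phagocytic receptor gene NimC1 at -0.77. Their list mean lay at 8.06 to 8.26 in the rich arrays and at 8.29 to 8.57 in the poor arrays, without overlap. The Foxo arrays, all rich, held the lowest means, at 8.12, 8.06 and 8.14. Within the controls and within the Mnt arrays the median difference of the list was -0.16 and -0.15. Fat body genes had a median of -0.14 over 9 genes. Lsp2, a larval serum storage protein, lay at 5.84, 10.10 and 11.00, at 10.58, 7.56 and 9.89, and at 6.23, 10.93 and 9.09. It was thus lowest in control 1 and Mnt 1, the 2 arrays of middle accessory gland signal. Neuron and eye genes and ovary and eggshell genes had medians of -0.06 over 9 genes and -0.14 over 13 genes, with 0 higher in either list.

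Tests between the labelled groups, which the rule on Mst84Da did not use, were made with limma over all genes. In Foxo versus control 12 genes (0.100%) passed an adjusted p of 0.05, of which 2 were higher (0.0167%) and 10 lower (0.0835%), and 2136 (17.8%) had an unadjusted p under 0.05. In Mnt versus control 0 genes (0%) passed limma's adjusted threshold, and 424 (3.54%) had an unadjusted p under 0.05. Of the 544 genes 0 passed in either comparison, and their smallest adjusted p was 0.276 and 0.999. Their median log2 fold change was 1.49 in Foxo versus control, against -0.06 over all genes, and 0.42 in Mnt versus control, against 0.00. At an unadjusted p under 0.05 stood 339 of the 544 (62.3%) in the first comparison and 0 (0%) in the second. The direction in Foxo versus control, positive for all 544, is fixed in part by the choice of classes, since all 3 Foxo arrays were rich and 2 of 3 controls poor. The same holds for the size of the fold changes and the share with a small unadjusted p in that comparison. Nothing is read from either for these genes.

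Of the 116 genes of the 8 spermatid and sperm lists, 0 passed limma's adjusted threshold in either comparison. At an unadjusted p under 0.05 stood 56 in Foxo versus control, against 17.8% of all genes, and 0 in Mnt versus control, against 3.54%. The first count does not depend on the division into classes, but the lists were chosen with earlier results of these data known. Since all 3 Foxo arrays were rich, class and group cannot be told apart in it. betaTub85D differed by 2.58 with an SE of 1.20 between Foxo and control arrays (limma, adjusted p = 0.292) and by 0.73 between Mnt and control arrays (adjusted p = 0.999). ProtA differed by 2.55 with an SE of 1.17 (adjusted p = 0.288) and by 0.60 (adjusted p = 0.999). Both genes differed more between the rich and poor arrays inside the control and Mnt groups than between the means of those groups. This follows in part from the choice of classes, since the control and Mnt groups held them in the same proportion.

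Of the 12 genes that passed in Foxo versus control, 0 were counted as higher or lower, against 4.54% and 0% of all genes. Among so few genes this lies near those shares, and nothing is read from it. CG13794 alone had classes without overlap. CycB was lower by 2.18 with an SE of 0.19 and squ higher by 1.70 with an SE of 0.14 (limma, adjusted p = 0.00862 for both). The other 10 were Cyp4p2, which was higher, and Mal-A5, CG5569, CG4461, CG9399, lama, CG3764, CG6664, Cyp4d21 and CG13794, with their sizes between -1.17 and 1.56. Within the controls and the Mnt arrays the rich array differed from the poor ones by -0.27 to 0.39 in these 12 genes. Fits with the class as a further term, with the replicate block and with only the 6 arrays of both groups gave 0 calls each. Leaving out 1 array at a time gave 0 to 13, with 0 without control 2 or without control 3 and 1 without Foxo 1.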

How the data were processed

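Arrays of 9 male muscle samples in 3 groups of 3 were analysed, with groups and replicate numbers taken from the sample titles. The deposited table holds log2 signals of 18952 probe sets, made by the authors with RMA, per the submitters' processing notes, which name no version. RMA gives the probe values of all arrays the same distribution before it summarises them, so a shift of most transcripts together is largely removed. No sequencing depth applies, and 3 arrays per group limit the precision.

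The 183 control probe sets were left out. The platform annotation gives 1 gene for 13647 probe sets, several for 402 and none for 4720, and genes were named from the first alone. Each gene was read from its probe set of highest mean, which gave 11982 genes. Of the single-gene probe sets, 13544 matched, by Entrez identifier, the Release 6 plus ISO1 MT annotation, which was used for names, arms and neighbours.

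Arrays were divided at 9.2 in Mst84Da and described without a test. Labelled groups were tested with limma 3.58.1 in R 4.3.3 (lmFit, eBayes with an intensity trend, 3 groups in 1 fit, two-sided, Benjamini-Hochberg adjusted p under 0.05 over all genes), and Mst84Da also with an exact permutation test. Errors of fold changes are limma's SEs. Descriptions used Python 3.11.15 and pandas 2.3.3. In simulated data of 11982 genes the fit of Foxo versus control recovered 85% of 100 genes shifted by 1 (log2) and 95% of 100 shifted by 2, with 7 false of 187 calls. For Mnt versus control it recovered 82% and 92%, with 5 false of 179 calls. The simulated noise was drawn separately for each gene, and the shifted genes were picked at random. It held no signal shared by many genes, so these shares do not carry over to the genes that follow Mst84Da.

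The 21 gene lists held 341 genes, of which 282 were measured. The members, lists and rules were chosen with earlier results of these data known. Named were Mst84Da, foxo and Mnt, up to 4 members of largest and 2 of smallest difference in each list, the 12 genes of largest and 12 of most negative difference outside the lists among those without overlap, the 6 genes nearest to Mst84Da, and limma calls also counted as higher or lower. Other genes were named after their values were seen. Alternatives were a larger fold, 2 other scalings, the mean of probe sets, no cross-hybridising probe sets, no dim genes, Mst87F as the marker, differences within groups, each array left out, the replicate number as a block, 6 arrays only, no intensity trend, array weights and the class as a term. A division in the widest gap of Mst84Da was added after seeing the data.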

Additional observations from a re-analysis of the deposited data

Results flagged for a closer look

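Dixon's ratio was computed for 42 list means, each over the arrays of 1 class, and chance marks about 1 in 20 of them. The mean of the accessory gland list in Foxo 3, 9.07, stood far above the other 4 rich arrays, with a ratio of 0.739 of the range. The ejaculatory duct and bulb list in Foxo 3, 6.20, did so with a ratio of 0.780. Acp53C14c stands in both lists, and it lay at 6.74 in Foxo 3 and at 3.25 to 3.64 elsewhere.

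For 3 lists the rich array lay on opposite sides of both poor arrays in the controls and in the Mnt arrays. The difference between the groups was not tested. For the accessory gland list the rich array differed from the poor arrays by 0.999 within the controls and by -0.685 within the Mnt arrays. For the meiotic arrest list the values were -0.094 and 0.043, and for the hub and cyst list 0.024 and -0.045.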

How the results depend on the processing

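The count of genes higher in the rich arrays, 544, became 160 with a difference of 2 asked for and 248 without the dimmest 40% of genes, which tests fewer genes. It lay between 475 and 656 with each array left out, and 16 of its 18 alternatives stayed within 1.5 times of it. Mst87F gave the same classes. The count of lower genes, 0, became 2 with each array centred on its median, 14 within the groups that hold both classes and 9 with the classes divided in the widest gap, and 0 to 3 with each array left out. The cause was not tested. The 12 calls of Foxo versus control became 0 with the replicate block, 0 with only the 6 arrays of both groups, 4 with no intensity trend and 0 with the class as a term. Leaving out each array gave 0 to 13: 0 without control 2 or control 3, 1 without Foxo 1, 4 without Mnt 1, 5 without Mnt 3, 6 without Mnt 2 and 7 without control 1. The other 7 alternatives stayed within 1.5 times of the count. The 0 calls of Mnt versus control became 1 without Mnt 1. Mst84Da in Foxo versus control kept its direction and its side of the threshold in 17 of 17 alternatives, from 0.995 to 2.98 with each array left out, with limma's adjusted p from 0.231 to 0.737. In Mnt versus control it reversed to -0.81 without control 3 and -0.49 without Mnt 3, and lay between -0.81 and 1.53 with each array left out, with limma's adjusted p from 0.8851 to 0.9998. Its permutation p across the groups was 0.314 to 0.318. For same-numbered arrays, the correlations of deviations from the group means ran from -0.703 to 0.106 over 9 pairs. These deviations also hold the differences in testis transcripts, and whether same-numbered arrays were prepared together was not tested. A gene's signal near background limits what can be seen, and the deposited values do not say which signals are above it.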

Other observations

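Some probe sets in the class contrast belong to no single gene of the annotation. Of the 4720 probe sets that it does not list, 14 (0.297%) had rich arrays above poor arrays by at least 1 without overlap, against 557 of 13647 probe sets with 1 gene (4.08%). Among the 402 probe sets with several genes it was 24 (5.97%). A further 141 genes differed by at least 1 with overlapping classes.

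Of the 470 genes in which control 1 stood above both other controls, 29 had Mnt 3 below both other Mnt arrays. The share of all genes with Mnt 3 below both was not counted, so nothing is read from the 29. Of the 25 accessory gland genes, 12 were among those 470, which make up 3.92% of all genes, but not among the 694 of Mnt 3.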
